A study of Mus musculus with 42 samples.

Results

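Regulatory T cells (Treg) from splenocyte cultures that had received KT3, an antibody against CD3, were compared between 24 h and 0 h. The members were taken from the labels, as the 2 arrays titled TR.VITRO.24hr and the 2 titled TR.VITRO.0hr, which are 4 of the 42 arrays of the series. In both groups the labels give NOD mice of the genotype Foxp3-IREs-GFP+/+, in which GFP reports Foxp3 transcription, and KT3 at 1.25 µg/ml for the stated time. Whole splenocytes were cultured, and CD4+ cells negative for B220, CD8a, CD11b and CD11c were then sorted, so that other spleen cells shared the wells with the Treg until the sort. The arrays numbered 1 came from female mice of 9 weeks and those numbered 2 from males of 14 weeks. Arrays were therefore paired by number, and number, sex and age cannot be told apart. The Treg were set against conventional CD4+ T cells (Tconv) at 24 h and 0 h, with the same genotype, culture, sex and age labels, and against Treg sorted as GFP+ cells from Foxp3-IRES-GFP NOD females of 8 weeks, 24 h after intravenous KT3 or untreated (0 h). One of the untreated in vivo samples, number 2, was sorted in a second pass and the other in vivo samples were not. Each of these groups held 2 arrays. All culture arrays carry the KT3 label, so effects of KT3 and of time in culture cannot be told apart. The arrays of a culture group, which differ in sex and age, came from different mice, and with 1 array for each number the spread between mice and that between arrays cannot be told apart. For the in vivo groups the labels do not say whether the mice differed.

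Treg are CD4+ T cells that depend on the transcription factor Foxp3, restrain other lymphocytes, and need interleukin-2 from their neighbours. Antibodies against CD3 engage the T cell receptor complex without antigen. They bring on immediate early genes, then genes of growth and metabolism, and later those of DNA synthesis and division. Interferons released in a mixed culture act on T cells through STAT proteins and interferon regulatory factors, which bind a short element in the promoters of interferon-stimulated genes.

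All values are log2 of the intensity of a gene's transcript cluster, and levels are compared between arrays for the same gene, not between genes. Foxp3 stood at 12 and 11.89 on the 24 h arrays (numbers 1 and 2), against 11.52 and 11.85 on the 0 h arrays. In Tconv in culture it stood at 7.62 and 7.38 at 24 h, against 8.20 and 7.23 at 0 h. The Treg arrays thus carried high Foxp3 at both times, although the labels write their sort gate as GFP-. The spread of values within an array differed, with interquartile ranges of 3.15 and 2.84 at 24 h, against 2.19 and 2.76 at 0 h. The 0 h array of number 1 was thus the narrow one of the 4. The narrowest array in culture was the 0 h Tconv array of number 1, at 1.64. No tested gene of the lists for B cells, macrophages and monocytes, neutrophils, dendritic cells, CD8 T cells, erythroid cells or platelets was called in either direction. These lists held 2 to 6 tested genes each, and 9.1% of all tested genes were called, so the lack of calls says little about other cells. The 1 tested NK cell marker and 2 of 3 tested plasma cell markers were called higher. In the fit to the 10 Treg culture arrays 1 macrophage and monocyte marker was lower and 1 B cell marker higher. The mean of the 5 macrophage and monocyte markers was 5.53 and 5.55 at 24 h, against 6.38 and 6.01 at 0 h. The mean of the 5 B cell markers was 6.36 and 6.15 at 24 h, against 6.42 and 5.99 at 0 h.

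At 24 h the Treg carried more RNA of most tested interferon-stimulated genes, of granzyme B and its inhibitor, of several costimulatory receptors and of most tested genes for making ribosomes, and less RNA of Dtx1, Txnip, Cd7 and Btg2. In bulk arrays a lower level from fewer cells that express a gene and one from less RNA per cell cannot be told apart. Of 12425 genes tested, 1131 (9.1%) were called at an adjusted p under 0.05 with limma and Benjamini-Hochberg adjustment, 932 (7.5%) higher and 199 (1.6%) lower. Of these, 619 differed by at least 2-fold. The median difference over all tested genes was 0.07. Without the array number as a block 739 genes were called, all of them among the 1131. The count rested on single arrays: it was 242 without the 0 h array of number 1, 297 without the 24 h array of number 1, and 2252 without the 0 h array of number 2. The 82.4% of calls that were higher also depended on the scale of the arrays, and became 54.1% after quantile normalization, 53.2% after setting all interquartile ranges equal and 93.2% after median centring, which moved the median difference to 0.22.

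The numbers did not carry equal weight. Over all tested genes the median absolute difference between 24 h and 0 h was 0.56 in number 1 and 0.20 in number 2, and it was larger in number 1 for 9372 genes. The sign agreed between the numbers for 8008 genes (64.5%), with Pearson's r of 0.43 across genes, which are not independent replicates. In number 1 the difference followed the level of the gene: with the genes in 4 bins of equal size from dim to bright, its median was -0.47, 0.05, 0.45 and 0.46. In number 2 the same medians were -0.03, -0.02, 0.04 and 0.06. All 1131 genes called had the same sign in both numbers and no overlap between the groups, against 57.4% of all tested genes with no overlap. Among the genes called, 251 were at least 2-fold higher in both numbers and 31 at least 2-fold lower in both.

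**Figure D1:**
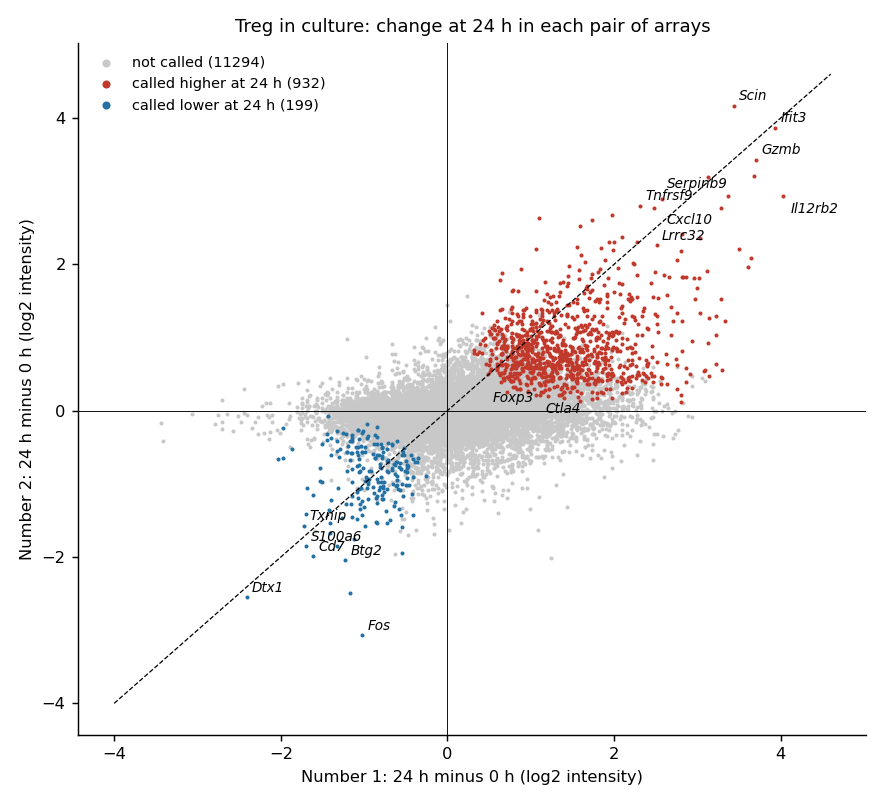
Each point is 1 of the 12425 genes tested, with the log2 difference between 24 h and 0 h in number 1 on the x axis and in number 2 on the y axis, and the dashed line marking equal differences. The cloud of uncalled genes is wider along the x axis, while Scin, Ifit3, Gzmb and Dtx1 lie near the dashed line, far from 0 in both numbers.

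The 12 genes with the largest rise in both numbers included Ifit3, Scin, Gzmb and Il12rb2. Ifit3, an antiviral protein induced by interferon, stood at 9.48 and 9.51 at 24 h, against 5.55 and 5.64 at 0 h. It rose by 3.90 ± 0.47 (SE), or 14.9-fold (limma adjusted p = 8.41e-06). Scin, an actin-severing protein of the gelsolin family, stood at 8.49 and 9.46 at 24 h, against 5.05 and 5.28 at 0 h. Both 24 h arrays lay more than 3 log2 units above both 0 h arrays for these genes. Scin rose by 3.80 ± 0.31, or 14.0-fold (limma adjusted p = 7.4e-08). The 0 h levels of Ifit3 and Scin lay below the medians of the 0 h arrays, 6.73 and 6.58, so both folds rest on dim 0 h values. Gzmb, the cytotoxic protease granzyme B, was at 10.78 and 10.97 at 24 h, against 7.08 and 7.54 at 0 h, a rise of 3.56 ± 0.34 (limma adjusted p = 2.94e-07). Serpinb9, a serpin that inhibits granzyme B, rose with it. It was at 9.48 and 9.81 at 24 h, against 6.11 and 6.86 at 0 h, a rise of 3.16 ± 0.32 (limma adjusted p = 6.13e-07).

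Il12rb2, the signalling chain of the interleukin-12 receptor, was at 9.2 and 8.42 at 24 h, against 5.17 and 5.48 at 0 h. Its rise was 3.48 ± 0.48 (limma adjusted p = 4.27e-05). Bhlhe40, a transcription factor of activated T cells, was at 9.38 and 9.80 at 24 h, against 6.57 and 7.39 at 0 h. As for all genes called, neither gene's groups overlapped, and the rise of Bhlhe40 was 2.61 ± 0.30 (limma adjusted p = 4.45e-06). Gadd45g, a stress-response protein that activates MAP kinase signalling, was at 9.51 and 10.26 at 24 h, against 6.93 and 7.36 at 0 h. Cybrd1, a membrane reductase of iron, was at 10.92 and 10.10 at 24 h, against 7.88 and 7.74 at 0 h. Both rose to like extents, Gadd45g by 2.74 ± 0.26 and Cybrd1 by 2.70 ± 0.24. The remaining members of the 12 risers were Ifit3b, Ifit1, Cxcl10 and Rtp4. Each of the 12 stayed called under every alternative setting in which it was tested, 17 for Ifit3b and 18 for the others.

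The genes that fell most in both numbers included regulators of Notch signalling, quiescence and lymphocyte surface proteins. Dtx1, a Deltex ubiquitin ligase of the Notch pathway, was at 7.80 and 7.92 at 24 h, against 10.21 and 10.47 at 0 h. It fell by 2.48 on the log2 scale (SE 0.28, limma adjusted p = 3.18e-06). Txnip, which binds thioredoxin and restrains glucose uptake, was at 10.61 and 10.70 at 24 h, against 12.33 and 12.27 at 0 h, and its difference was -1.64 ± 0.27. The levels of both genes lay close together within each group and far apart between groups. Btg2, an antiproliferative factor of resting T cells, was at 9.30 and 9.21 at 24 h, against 10.53 and 11.25 at 0 h, a difference of -1.63 ± 0.24. Cd7, an immunoglobulin-family surface protein of T cells, was at 8.08 and 7.65 at 24 h, against 9.69 and 9.64 at 0 h, a difference of -1.80 ± 0.30. S100a6, a calcium-binding protein, differed by -1.77 ± 0.32. Its levels were 7.5 and 7.24 at 24 h, against 9.2 and 9.09 at 0 h.

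Ramp1, a subunit of the receptor for the neuropeptide CGRP, differed by -1.48 ± 0.24. Rab37, a small GTPase of vesicle transport, differed by -1.39 ± 0.20. Ephx1, a microsomal epoxide hydrolase, differed by -1.54 ± 0.30, Hsd11b1, which regenerates active glucocorticoid, by -1.59 ± 0.33, and Pglyrp1, a peptidoglycan-binding protein, by -1.25 ± 0.24. All 5 passed the test, and like all genes called none of them overlapped between groups. Slc40a1, the iron exporter ferroportin, and Sit1, an adaptor that dampens T cell receptor signals, completed the 12. Slc40a1 was at 4.88 and 5.01 at 24 h, against 6.58 and 6.42 at 0 h, and its call (-1.55, limma adjusted p = 0.0276) was lost without the block (adjusted p = 0.366) and when any 1 of the 4 arrays was left out, with differences of -1.36 to -1.75. Sit1 was at 8.49 and 8.27 at 24 h, against 9.75 and 9.74 at 0 h. Its call (-1.37, adjusted p = 0.00865) was lost without the 24 h array of number 1 (-1.44), of number 2 (-1.29) and without the 0 h array of number 1 (-1.41), all 3 leaving the size of the difference nearly as it was.

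**Figure D2:**
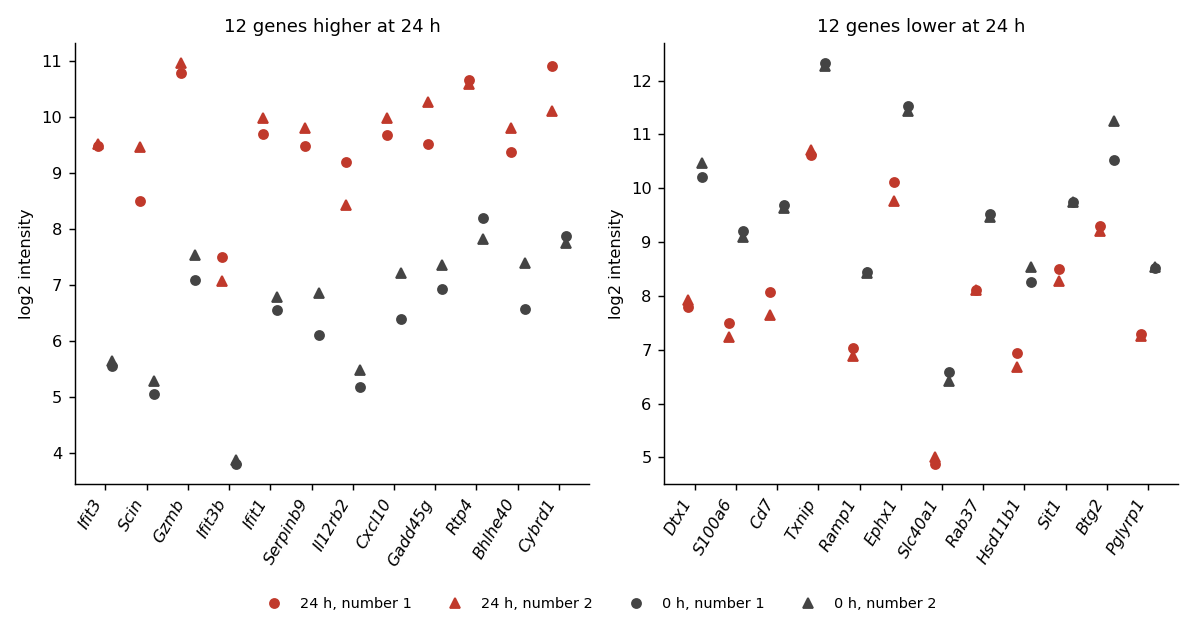
Levels (log2 intensity) of the 12 genes with the largest rise in both numbers (left) and the 12 with the largest fall in both (right) in Treg in culture, with 24 h in red left of 0 h in grey, circles for number 1 and triangles for number 2. In every gene shown both red points lie on the same side of both grey points, and Ifit3b has the lowest 0 h levels, 3.80 and 3.86.

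Of 26 tested interferon-stimulated genes 20 were higher, none was lower and 6 did not pass, against 7.5% of all tested genes called higher. The median difference over the 26 was 1.64, against 0.07 over all tested genes. Counts were 17 without the block, 16 without the 0 h array of number 1 and 18 after setting the interquartile ranges equal. Ifit1, a sensor of viral RNA ends, was at 9.69 and 9.98 at 24 h, against 6.55 and 6.78 at 0 h, a rise of 3.16 ± 0.54 (limma adjusted p = 0.000432). Rtp4, a receptor transport protein induced by interferon, was at 10.66 and 10.59 at 24 h, against 8.19 and 7.82 at 0 h, a rise of 2.62 ± 0.36. Neither gene overlapped between groups, which holds for all genes called. Ifit3b, a near copy of Ifit3, rose by 3.45 ± 0.55, but probes of such copies may read both RNAs, so the split between them is uncertain. Iigp1, an interferon-induced GTPase, was at 10.22 and 10.13 at 24 h, against 6.58 and 8.04 at 0 h, and rose by 2.87 ± 0.42 with 0 h arrays that differed from each other by more than 1 log2 unit. Cxcl10, a chemokine induced by interferon, was at 9.67 and 9.99 at 24 h, against 6.39 and 7.21 at 0 h, a rise of 3.02 ± 0.43 (limma adjusted p = 6.25e-05). It was the only one of 9 tested chemokines that was called, and 1 of 2 without the 0 h array of number 1. Stat2, a transcription factor of the interferon response, differed by 1.93 in number 1 and 1.82 in number 2, and Irf7, an amplifier of the response, by 1.83 and 1.93. Relative to 0 h the median over the list was -0.17 at 2 h, 2.40 at 8 h, 1.64 at 24 h and 0.42 at 72 h. In the direct test of 24 h against 8 h, 1 of the 26 members, Oas3, was called lower, none was higher and 25 were not called. The responses at 2, 8, 24 and 72 h share the 0 h arrays.

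The promoters of risers in this group are shown because they carry the letters of the interferon-stimulated response element. The 250 bases before the RefSeq start site (GRCm38.p6) were searched for GAAANNGAAA on both strands, where N is any base, so that the other strand reads TTTCNNTTTC. Matches may overlap each other, and no other motif was searched. Capitals mark each match in the 160 bases next to the start, written 5′ to 3′ in the direction of the gene. Ifit3 lies at chr19:34583369-34583528 (+), Ifit3b at chr19:34607797-34607956 (+), Ifit1 at chr19:34640729-34640888 (+) and Oas3, an antiviral enzyme that makes oligoadenylates, at chr5:120777660-120777819 (-).
Ifit3: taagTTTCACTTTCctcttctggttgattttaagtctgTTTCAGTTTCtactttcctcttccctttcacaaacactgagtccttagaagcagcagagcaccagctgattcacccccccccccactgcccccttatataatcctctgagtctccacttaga
Ifit3b: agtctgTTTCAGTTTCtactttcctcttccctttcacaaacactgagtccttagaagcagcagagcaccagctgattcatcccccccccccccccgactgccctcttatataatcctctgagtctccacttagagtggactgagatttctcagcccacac
Ifit1: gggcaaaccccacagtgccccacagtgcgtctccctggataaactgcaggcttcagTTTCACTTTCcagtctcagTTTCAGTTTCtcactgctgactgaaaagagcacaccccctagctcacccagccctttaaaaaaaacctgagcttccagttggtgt
Oas3: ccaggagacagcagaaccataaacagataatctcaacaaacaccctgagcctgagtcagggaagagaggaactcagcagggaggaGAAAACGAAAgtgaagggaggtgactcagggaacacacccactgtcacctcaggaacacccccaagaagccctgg
Ifit3, Ifit3b and Ifit1 each held 2 matches in the 250 bases, and Oas3 held 1. Of the 26 tested members of the list, 18 had a promoter in the table, and 9 of these held a match. The share was 3.14% over the 9919 tested genes with a promoter and 3.46% over all 27025 genes of the table. Among genes called at 24 h it was 6.15% of the 764 higher genes and 1.29% of the 155 lower genes with a promoter. A match is a description of the letters and does not show a bound site. Rtp4 is named only.

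**Figure D3:**
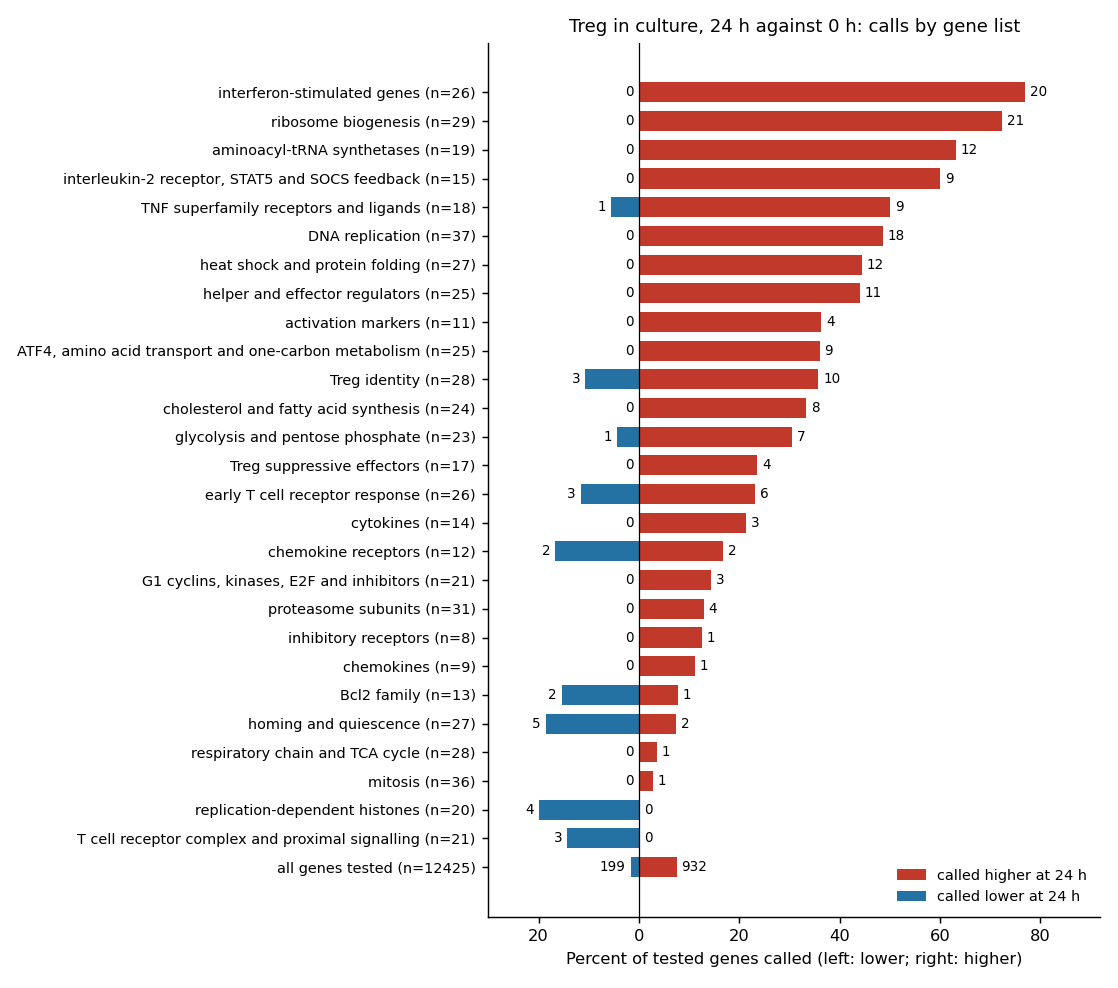
Percent of the tested members of each gene list called higher (red, right) or lower (blue, left) at 24 h against 0 h in Treg in culture, with the number of genes at the end of each bar and all tested genes in the lowest row. Interferon-stimulated genes (20 of 26), ribosome biogenesis (21 of 29) and aminoacyl-tRNA synthetases (12 of 19) lead, against 7.5% of all tested genes called higher.

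Genes that mark Treg moved in different ways: some rose, fewer fell, and others, Foxp3 among them, did not pass the test. Of 28 tested genes of Treg identity 10 were higher, 3 lower and 15 not called, against 7.5% higher and 1.6% lower of all tested genes. Their median difference was 0.64. The members lower were 1 without the 24 h array of number 2 or either 0 h array, and none without the 24 h array of number 1. Lrrc32, also called GARP, which docks latent TGF-beta on the Treg surface, was at 11.62 and 11.56 at 24 h, against 9.12 and 9.29 at 0 h. It rose by 2.38 ± 0.25 (limma adjusted p = 1.16e-06). Plagl1, a zinc finger transcription factor, was at 8.63 and 9.07 at 24 h, against 6.53 and 6.70 at 0 h, a rise of 2.24 ± 0.28. The 24 h levels of both genes lay clear of those at 0 h. Socs2, a suppressor of cytokine signalling, was at 10.59 and 10.29 at 24 h, against 7.77 and 8.46 at 0 h, a rise of 2.32 ± 0.25. Il2ra, the receptor chain CD25, which confers high affinity for interleukin-2, was at 12.16 and 12.01 at 24 h, against 9.91 and 10.77 at 0 h. It rose by 1.74 ± 0.29 (limma adjusted p = 0.000341), a call lost only with equal interquartile ranges among the alternatives.

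Foxp3 itself differed by 0.26 ± 0.27 (limma adjusted p = 0.506), by 0.48 in number 1 and 0.04 in number 2, and its sign turned with equal interquartile ranges (-0.61) and without the 0 h array of number 1 (-0.02). Ctla4, an inhibitory receptor that Treg carry constitutively, was at 12.01 and 11.74 at 24 h, against 10.90 and 11.84 at 0 h. The groups overlapped, and its difference of 0.50 ± 0.29 (limma adjusted p = 0.232) turned to -0.30 with equal interquartile ranges. Ikzf2, the transcription factor Helios, was at 10.91 and 10.90 at 24 h, against 9.35 and 10.84 at 0 h, so that its difference of 0.81 ± 0.29 (limma adjusted p = 0.0758) came almost wholly from number 1. Itgae, Cst7 and Rgs16 were the members called lower. Cst7, an inhibitor of cathepsins, lost its call without the 24 h array (-1.05) or the 0 h array (-1.11) of number 1, and Rgs16, a regulator of G protein signals, without the 24 h array of number 1 (-0.96) or 2 (-0.74) or the 0 h array of number 2 (-0.61). Itgae, the integrin chain CD103, was at 8.08 and 7.72 at 24 h, against 9.08 and 9.03 at 0 h. Its call (-1.15 ± 0.29, limma adjusted p = 0.014) was lost without the block (adjusted p = 0.0641) and without each of the 4 arrays in turn (-1.04 to -1.26).

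Suppressive effectors gave 4 calls higher of 17 tested, against 7.5% of all tested genes, with none lower and a median of 0.15. Besides Gzmb these were Icos, Furin and Itgb8, an integrin chain that activates TGF-beta, which lost its call without the 24 h array (1.09) or the 0 h array (0.75) of number 1. Icos, a costimulatory receptor of activated T cells, was at 11.80 and 11.72 at 24 h, against 9.68 and 10.52 at 0 h, a rise of 1.66 ± 0.27. Over 18 alternatives the rise of Icos ranged from 0.99 to 1.98, and its call was lost in 1. Furin, a protease that processes pro-TGF-beta, was at 9.50 and 9.92 at 24 h, against 8.18 and 8.53 at 0 h, a rise of 1.36 ± 0.21 (limma adjusted p = 0.000218). Of 8 inhibitory receptors only Cd200, a ligand that restrains myeloid cells, was called (3 were without the 0 h array of number 2), at 8.77 and 8.83 at 24 h, against 6.50 and 7.27 at 0 h. Of 14 cytokines 3 were called, all higher, and without the 0 h array of number 1 none was. Il10 was not called and differed by -0.19 in number 1 and -0.99 in number 2, and Il2 by -0.14 and -0.12.

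The TNF superfamily gave 9 calls higher and 1 lower of 18 tested members, against 7.5% higher and 1.6% lower of all tested genes. Its median was 0.77. Tnfrsf9, the costimulatory receptor 4-1BB, was at 12.30 and 12.51 at 24 h, against 9.99 and 9.71 at 0 h. It rose by 2.56 ± 0.25, or 5.89-fold (limma adjusted p = 5.81e-07). Tnfrsf4, the costimulatory receptor OX40, was at 12.59 and 12.49 at 24 h, against 10.91 and 10.79 at 0 h, a rise of 1.69 ± 0.23. The call of Tnfrsf4 was lost in 1 of 18 alternatives, with rises over them of 0.80 to 1.84. The pairs of each receptor were nearly level within a group. Tnfsf8, the ligand of CD30, was at 10.35 and 9.91 at 24 h, against 7.36 and 8.23 at 0 h, a rise of 2.34 ± 0.35. Tnfsf4, the ligand of OX40, was at 6.47 and 6.57 at 24 h, against 4.90 and 4.77 at 0 h, a rise of 1.69 ± 0.30, so that this receptor and its ligand both rose. Without the 0 h array of number 1 the list had 6 calls higher and none lower.

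Over all tested genes 7.5% were called higher and 1.6% lower. Of 15 tested genes of the interleukin-2 receptor and its STAT5 feedback, Il2ra among them, 9 were higher and none was lower, with a median of 0.89. Without the 0 h array of number 1 there were 6, and with equal interquartile ranges 5 were higher and 1 was lower. Cish, an inhibitor of cytokine receptor signals, was at 10.52 and 10.35 at 24 h, against 8.84 and 8.97 at 0 h, a rise of 1.53 ± 0.22. Bcl2l1, which encodes the survival protein Bcl-xL, was at 9.78 and 9.92 at 24 h, against 8.12 and 7.88 at 0 h, a rise of 1.84 ± 0.21 (limma adjusted p = 4.45e-06). Activation markers gave 4 calls higher of 11, among them Cd80, a ligand of CD28 and CTLA-4, at 8.28 and 7.86 at 24 h, against 6.41 and 6.90 at 0 h. Icam1, an adhesion molecule, was at 9.82 and 10.07 at 24 h, against 8.6 and 8.72 at 0 h. The groups of Cish, Bcl2l1, Cd80 and Icam1 did not overlap, as for all genes called.

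Genes of the early response to the T cell receptor moved in both directions. Against shares of 7.5% higher and 1.6% lower over all tested genes, 6 of 26 tested members were higher and 3 lower. Without the block they were 6 and 1. Without the 24 h array of number 1 they were 4 and 0, without that of number 2 7 and 0, without the 0 h array of number 1 2 and 2, and without that of number 2 10 and 0. The list's median was -0.14, although more members were called higher than lower, and at 2 h the median had been 1.28. Nr4a3, an orphan nuclear receptor induced by receptor signals, was at 10.41 and 10.19 at 24 h, against 6.90 and 7.99 at 0 h, a rise of 2.86 ± 0.34 (limma adjusted p = 7.86e-06). Rel, an NF-kappaB subunit, was at 11.70 and 11.40 at 24 h, against 8.94 and 10.08 at 0 h, a rise of 2.04 ± 0.33. Both genes stayed high at 24 h in both numbers. Fos, an AP-1 subunit, was at 7.24 and 7.37 at 24 h, against 8.26 and 10.44 at 0 h. The 0 h arrays of Fos lay more than 2 log2 units apart, with number 2 the higher. Its call (-2.04 ± 0.49, limma adjusted p = 0.00978) was lost without the 0 h array of number 2 (-1.10), and without the 24 h array of number 1 (-2.24) or number 2 (-1.84). Dusp1, a MAP kinase phosphatase, was at 10.53 and 10.52 at 24 h, against 11.22 and 12.02 at 0 h, and its call was lost without each of the 4 arrays in turn (-0.66 to -1.52).

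The shares of all tested genes called were 7.5% higher and 1.6% lower. Of 29 tested genes of ribosome biogenesis 21 were higher and none was lower, with a median of 1.13, and all 29 were higher at 24 h in both numbers with no overlap, against 33.3% of all tested genes. Counts were 15 without the block, 7 with equal interquartile ranges, 7 without the 24 h array of number 1, 13 without that of number 2 and 4 without the 0 h array of number 1. Gnl3, the nucleolar protein nucleostemin, was at 9.21 and 9.19 at 24 h, against 7.11 and 7.87 at 0 h. Its rise of 1.71 ± 0.35 (limma adjusted p = 0.00348) was no longer called without the 24 h array (1.52) or the 0 h array (1.47) of number 1. Of 19 tested aminoacyl-tRNA synthetases, which load tRNAs with amino acids, 12 were higher (median 0.90), and 8 without the block, 6 without the 24 h array of number 2, and 4 without either array of number 1. With equal interquartile ranges 2 of the 19 synthetases were called. Tars, the synthetase for threonine, was at 8.93 and 8.89 at 24 h, against 7.17 and 7.79 at 0 h, a rise of 1.43 ± 0.23, and stayed called under all 18 alternatives. Of 27 tested heat shock and folding genes 12 were higher (median 0.86), all 27 were higher in both numbers without overlap, and 6 were called without the block. That count was 1 without either array of number 1, 3 without the 24 h array of number 2 and 7 without the 0 h array of number 2. Equal interquartile ranges left 1 of the 27 folding genes called. Hspd1, the mitochondrial chaperonin HSP60, was at 10.91 and 11.10 at 24 h, against 8.85 and 9.51 at 0 h, a rise of 1.83 ± 0.35.

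The transcription factor Myc, which drives ribosome production and growth, was at 10.79 and 10.92 at 24 h, against 8.72 and 9.17 at 0 h. Its rise of 1.91 ± 0.44 (limma adjusted p = 0.00783) was of like size without the 24 h array (1.80) or the 0 h array (1.83) of number 1, though no longer called. Calls over all tested genes were 7.5% higher and 1.6% lower. Of 25 tested genes of the ATF4 response, amino acid transport and one-carbon metabolism 9 were higher and none was lower (median 0.38). Asns, asparagine synthetase, was at 8.35 and 8.39 at 24 h, against 6.35 and 6.08 at 0 h, a rise of 2.16 ± 0.27 (limma adjusted p = 1.59e-05). Shmt1, a serine hydroxymethyltransferase of folate metabolism, was at 8.16 and 8.44 at 24 h, against 6.89 and 6.87 at 0 h, and Slc7a1, a transporter of arginine and lysine, at 9.13 and 9.03, against 7.48 and 7.93. Like all genes called, neither overlapped between groups, and all 3 stayed called under all 18 alternatives. Of 24 tested genes of cholesterol and fatty acid synthesis 8 were higher and none was lower (median 0.52), and 5 were higher without the 0 h array of number 1. Idi1, an isomerase of the mevalonate pathway, was at 9.88 and 9.71 at 24 h, against 6.27 and 7.75 at 0 h, a rise of 2.78 ± 0.42. Cyp51, a demethylase of sterol synthesis, rose by 1.69 ± 0.29, and Acaca, the first enzyme of fatty acid synthesis, by 1.31 ± 0.23.

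Of 37 tested replication genes 18 were called higher and none lower, against 7.5% higher and 1.6% lower of all tested genes. The median of the list was 0.75. Counts fell to 7 without the block, 9 without the 24 h array of number 1, and 3 without either the 24 h array of number 2 or the 0 h array of number 1. Each of the 6 tested subunits of the Mcm helicase that opens the replication fork was called, with differences of 0.83 to 1.15, and at least 3 of these calls were lost in each setting that left 3 calls in the list. Prim1, the small primase subunit, was at 8.36 and 8.36 at 24 h, against 6.34 and 7.27 at 0 h. Its rise of 1.56 ± 0.33 (limma adjusted p = 0.00436) lost its call without the 24 h array (1.37) and without the 0 h array (1.22) of number 1. Rfc4, a subunit of the clamp loader, was at 8.76 and 8.68 at 24 h, against 6.93 and 7.46 at 0 h, a rise of 1.53 ± 0.31, lost without the 0 h array of number 1 (1.22).

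Over all tested genes 7.5% were called higher and 1.6% lower. Of 36 tested mitosis genes only Melk, a kinase of dividing cells, was called, at 8.57 and 8.70 at 24 h, against 6.84 and 6.83 at 0 h, a rise of 1.80 ± 0.26. The median of the mitosis list was 0.08, like that of all tested genes. Mki67, the proliferation marker Ki-67, differed by 0.13 in number 1 and -0.01 in number 2. By time, the median of the mitosis list relative to 0 h was -0.09 at 2 h, 0.09 at 8 h, 0.08 at 24 h and 2.80 at 72 h. For DNA replication it was 0.04 at 2 h, 0.08 at 8 h, 0.75 at 24 h and 1.68 at 72 h. The median of the replication list thus stood away from 0 at 24 h and that of the mitosis list at 72 h, all against the same 0 h arrays. In the direct test of 24 h against 8 h none of the 37 replication genes and none of the 36 mitosis genes was called. Replication-dependent histones, which package new DNA, had a median of -0.60 at 24 h and 1.25 at 72 h. All 20 tested histone genes were lower at 24 h in both numbers, as were 3491 of the 12425 genes tested, and 4 were called, none of them without the block or without either array of number 1, and 9 without the 24 h array of number 2. H1f1, a linker histone, was at 7.83 and 8.37 at 24 h, against 9.23 and 8.98 at 0 h, with 11.52 and 11.17 at 72 h.

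**Figure D4:**
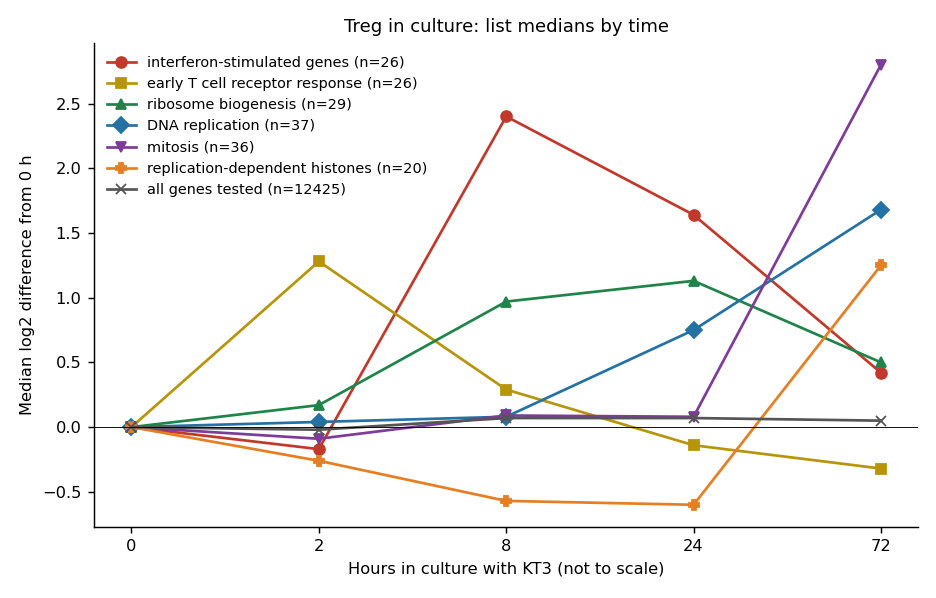
Median log2 difference from 0 h (y axis) of 6 gene lists and of all 12425 tested genes at 2, 8, 24 and 72 h in Treg in culture (x axis, not to scale), each time with 2 arrays and the same 0 h arrays. The interferon list stands at 2.40 at 8 h and 1.64 at 24 h, replication genes stand at 0.75 at 24 h, and mitosis genes leave 0 only at 72 h (2.80).

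Among cell cycle genes of G1, 3 of 21 tested members were higher and none was lower, and without either array of number 1 there was 1. Of all tested genes 7.5% were called higher. Cdk6, a kinase partner of D cyclins, was at 9.66 and 9.78 at 24 h, against 7.81 and 8.47 at 0 h, a rise of 1.58 ± 0.24. Regulators of helper and effector fates gave 11 calls higher and none lower of 25 (median 0.75), 8 without the block, 7 without the 24 h array of number 1 and 6 without the 0 h array of number 1. Tbx21, the factor T-bet of the type 1 helper program, was at 8.95 and 9.21 at 24 h, against 7.36 and 6.69 at 0 h, a rise of 2.06 ± 0.34. Eomes, its relative, was at 9.23 and 9.08 at 24 h, against 6.74 and 7.19 at 0 h, a rise of 2.19 ± 0.28. Eomes also stood on the list of NK cell markers, whose other members were too dim to test. Tbx21, Eomes and Il12rb2 did not overlap between groups, as for every gene called.

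Chemokine receptors gave 2 calls higher and 2 lower of 12, with none lower without the block or without any 1 of the 4 arrays. Over all tested genes the shares called were 7.5% higher and 1.6% lower. Ccr8, a receptor of tissue Treg, was at 10.28 and 10.08 at 24 h, against 7.49 and 7.90 at 0 h, a rise of 2.49 ± 0.25 (limma adjusted p = 6.13e-07). Ccr7, the lymph node homing receptor, was at 12.03 and 11.92 at 24 h, against 11.01 and 10.95 at 0 h, a rise of 0.99 ± 0.20. In 1 of 18 alternatives the call of Ccr7 was lost, and the rise ranged over them from 0.16 to 1.14. Cxcr3, a receptor of Cxcl10, was at 9.35 and 9.60 at 24 h, against 10.55 and 10.43 at 0 h. Its call (-1.02 ± 0.32, limma adjusted p = 0.0463) was lost without the block (adjusted p = 0.0876) and without each of the 4 arrays in turn (-0.86 to -1.18). Homing and quiescence genes gave 2 calls higher and 5 lower of 27, Btg2 and Txnip among the lower ones. The counts lower were 2 without the 24 h array of either number or the 0 h array of number 1, and 12 with equal interquartile ranges. The T cell receptor complex and its proximal signalling gave 3 calls lower and none higher of 21 (median -0.32), 12 lower with equal interquartile ranges, and none without the 24 h array of either number or the 0 h array of number 1. Lat, an adaptor of the receptor, was at 10.46 and 10.17 at 24 h, against 11.43 and 11.22 at 0 h. Its call (-1.01 ± 0.27, limma adjusted p = 0.0223) was lost without the 24 h array of number 1 (-1.12), of number 2 (-0.90) and without the 0 h array of number 1 (-0.94).

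Between 24 h and 8 h few genes separated. Of 12425 genes 3 were called (0.0241%), 2 higher (0.0161%) and 1 lower (0.00805%), with 465 at an unadjusted p under 0.05 in limma and none called without the block. Chek1, the checkpoint kinase of DNA replication, was at 7.33 and 7.89 at 24 h, against 5.65 and 5.65 at 8 h. Ncf1, a subunit of the phagocyte oxidase, was at 9.40 and 9.50 at 24 h, against 8.69 and 8.07 at 8 h. Oas3 was lower, at 8.79 and 8.72 at 24 h, against 10.38 and 9.94 at 8 h. None of the 3 overlapped between the groups, but the share of all tested genes without overlap was not computed for 24 h against 8 h. With 2 arrays against 2 such genes are common, and at 24 h against 0 h they were 57.4% of all tested genes. The calls were 1 without the 24 h array of number 1 (Ncf1), none without the 24 h array of number 2 or the 8 h array of number 1, and 2 without the 8 h array of number 2, of which 1 was Oas3. The differences of Chek1 ranged over these from 1.68 to 2.24, those of Ncf1 from 0.83 to 1.24 and those of Oas3 from -1.19 to -1.42, where the call was lost.

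The response of Treg differed from that of Tconv in culture for a small set of named genes. The difference of the responses was called for 108 of 12425 genes (0.869%), 36 with the Treg response higher (0.29%) and 72 with it lower (0.579%). Without the block 61 were called. Leaving out 1 array gave 62 and 54 (24 h Treg, numbers 1 and 2), 47 (0 h Treg, number 1), 16 (24 h Tconv, number 1), 67 and 4319 (0 h Tconv, numbers 1 and 2), while 5 were called in the fit to the 20 culture arrays and none with array weights (287 at an unadjusted p under 0.05). The weights were equal within each group, at 0.073 for both 0 h Tconv arrays, so they could not single out the narrow one. Among the risers, Scin was at 8.49 and 9.46 in Treg at 24 h, against 5.14 and 5.28 in Tconv at 24 h, where it had stood at 5.20 and 5.12 at 0 h. The Treg response exceeded that of Tconv by 3.75 ± 0.44 (limma adjusted p = 0.000105). For Gzmb the difference of responses was 3.27 ± 0.48, with Tconv at 5.93 and 6.83 at 24 h, against 6.18 and 5.99 at 0 h. Granzyme B thus rose in Treg while the Tconv levels overlapped between times. Lrrc32 (2.71 ± 0.35) and Plagl1 (2.79 ± 0.39) likewise rose in Treg and gave Tconv differences of -0.32 and -0.56. Cybrd1 differed by 2.57 ± 0.35 between the responses and Mpzl2, an adhesion protein of the myelin protein zero family, by 2.62 ± 0.37. Mpzl2 was at 8.43 and 8.14 in Treg at 24 h, against 5.67 and 6.07 at 0 h.

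Lag3, an inhibitory receptor that binds MHC class II, went the other way. In Tconv it was at 11.30 and 10.70 at 24 h, against 7.32 and 7.40 at 0 h, and in Treg at 8.40 and 8.02 at 24 h, against 8.07 and 7.84 at 0 h. The Treg response was lower by 3.39 on the log2 scale (SE 0.41, limma adjusted p = 0.000105). The Treg difference alone, 0.25 ± 0.29, was not called and became -0.02 after quantile normalization. The calls of Scin, Gzmb, Lrrc32, Plagl1, Cybrd1, Mpzl2 and Lag3 held when any single array was left out and were lost with array weights, and those of Plagl1 and Mpzl2 also in the fit to the 20 culture arrays. For Cd7 the difference of responses was -2.52 ± 0.43, for Ephx1 -2.50 ± 0.42, and for Gstp3, a glutathione transferase, -2.46 ± 0.43. Pold4, a subunit of DNA polymerase delta, gave -2.43 ± 0.40, and Cd9, a tetraspanin, -2.27 ± 0.39. These 5 were lost without the 24 h Tconv array of number 1, at -2.18 for Cd7, -2.23 for Ephx1, -2.11 for Gstp3, -2.08 for Pold4 and -2.13 for Cd9. Each of the 5 calls was lost in 3 of 19 alternatives. Over the 19 the differences ranged from -3.16 to -1.88 for Cd7, -3.09 to -1.90 for Ephx1 and -3.20 to -1.73 for Gstp3. They ranged from -3.02 to -1.82 for Pold4 and -2.99 to -1.54 for Cd9. The Treg differences alone of Pold4 (-0.29) and Cd9 (-0.61) were not called.

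In culture and in vivo the Treg responses at 24 h share no array, and the groups differ in sex, age, sort gate and setting together. The difference of the responses was called for 89 of 12425 genes (0.716%), 57 with the culture response higher (0.459%) and 32 lower (0.258%), and for 12 without the block, all of them higher. Leaving out 1 array gave 10 (24 h culture, number 1), 7 (0 h culture, number 1), 9 and 28 (24 h in vivo, numbers 1 and 2) and 4 (0 h in vivo, number 1). Mpzl2 (3.46 ± 0.37, limma adjusted p = 2.9e-05) and Cybrd1 (2.97 ± 0.35, limma adjusted p = 6.22e-05) kept their calls under every alternative in which they were tested, 18 for Mpzl2 and 19 for Cybrd1. In vivo Mpzl2 was at 5.16 and 5.84 at 24 h, against 6.53 and 6.55 at 0 h, and Cybrd1 at 8.23 and 8.00, against 8.6 and 8.18. The in vivo levels of Mpzl2 were lower at 24 h without overlap, and those of Cybrd1 overlapped. Bcl2l1 (2.15 ± 0.30) also kept its call, with in vivo levels of 7.61 and 7.79 at 24 h, against 8.12 and 7.88 at 0 h. Serpinb9 differed by 2.63 ± 0.45 between the responses, lost without the 0 h culture array of number 1 (2.31) and the 0 h in vivo array of number 1 (2.23).

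Ifit3 in vivo was at 8.27 and 6.91 at 24 h, against 7.92 and 5.80 at 0 h, so that the in vivo arrays of number 1 were high at both times. Its difference of responses, 3.17 ± 0.67 (limma adjusted p = 0.0265), was lost without 6 of the 8 arrays concerned, at 2.45 to 3.47. The median of the interferon list was 1.64 in Treg in culture, 1.46 in Tconv in culture and 0.34 in Treg in vivo. For mitosis the medians were 0.08 in Treg in culture, 0.14 in Tconv in culture and 0.94 in Treg in vivo. Kif2c, a kinesin of the mitotic spindle, was at 5.65 and 5.99 in culture at 24 h, against 6.71 and 5.88 at 0 h, and in vivo at 8.00 and 7.05 at 24 h, against 6.21 and 5.98 at 0 h. Its response was lower in culture by 1.90 on the log2 scale (SE 0.38), a call lost without the 24 h culture array of number 1 (-1.64), the 0 h culture array of number 1 (-1.51), the 24 h in vivo array of number 1 (-1.67) or the 0 h in vivo array of number 1 (-1.73). Gzma, granzyme A, was at 4.69 and 4.83 in culture at 24 h, against 5.32 and 5.06 at 0 h, and in vivo at 7.48 and 6.98 at 24 h, against 5.65 and 5.02 at 0 h. The difference of -2.32 ± 0.40 was lost without the block (adjusted p = 0.348) and without 4 of the arrays concerned (-2.01 to -2.23).

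**Figure D5:**
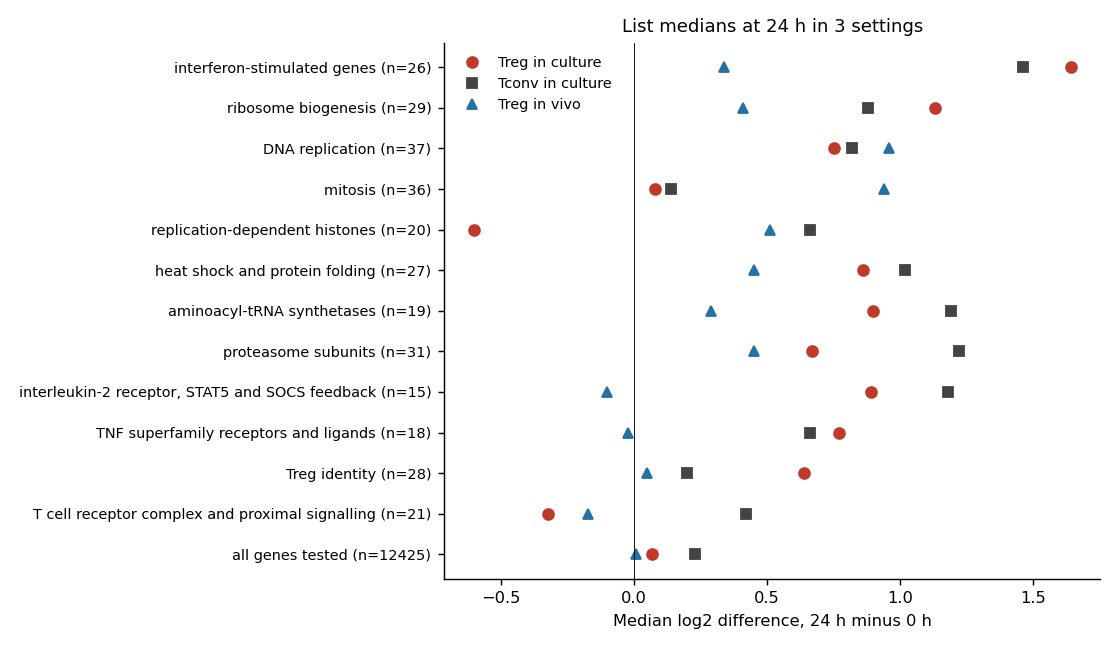
Median log2 difference between 24 h and 0 h (x axis) of 12 gene lists and of all tested genes in Treg in culture (red circles), Tconv in culture (grey squares) and Treg in vivo (blue triangles), each from 2 arrays a time. The interferon list lies at 1.64 in Treg in culture and 0.34 in Treg in vivo, the histone list lies below 0 only in Treg in culture (-0.60), and no test was made between the medians.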

How the data were processed

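RNA of 42 sorted T cell samples in 22 groups was measured on Affymetrix ST1.0 gene arrays. The intensities used are those the authors deposited, 1 for each of 24922 transcript clusters and array, on a linear scale. Per the series design text they were preprocessed with RMA in GenePattern, and the submitters' processing notes name Affymetrix Power Tools and RMA. The sources used here state neither their versions nor whether RMA was run jointly on the arrays. RMA subtracts a modelled background, and its effect on dim genes was not tested. The number of arrays limits the precision.

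Clusters with 1 symbol (21425; 1399 had several and 2098 were not listed) gave 19752 genes, by the cluster of highest mean. The test took the 12425 genes that exceeded an array's median on 2 or more arrays. Their log2 values entered a single limma fit (version 3.58.1, R 4.3.3) with a mean for each of the 22 groups and array number within setting as a block (18 residual and 5.72 prior degrees of freedom). P-values are two-sided, adjusted by Benjamini-Hochberg over all tested genes. The pairing by number rests on sex and age in the labels. As a check, the deviations of the 24 h and 0 h Treg arrays from their group means, by number, correlated at -0.395 across genes, so they did not deviate together.

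Named genes were, for 24 h against 0 h, the 12 genes called higher and the 12 called lower with the largest smaller one of the 2 differences by number; for the other comparisons up to 6 in each direction; 10 genes named throughout; and up to 4 called members of a list, with members opposite to their list. Of 114 named genes called at 24 h, 55 stayed called under every alternative in which they were tested, and the text shows mainly these. The 27 response lists held 664 genes, of which 568 were tested, 23 were dim and 73 had no cluster of their own. Stat2, Irf7, Mki67, Il10, Il2 and the Mcm subunits were singled out after their values were seen. Members and lists were chosen with earlier results of these data known. The test was checked on simulated data. There each gene had the same residual spread on all arrays, so the check does not cover arrays of unequal range. Alternatives were other normalizations, filters, an offset, weights, sets of arrays, the fit without the block and leaving out each array. Promoters come from RefSeq (GRCm38.p6). Python 3.11.15, pandas 2.3.3 and matplotlib 3.10.9 were also used.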

Additional observations from a re-analysis of the deposited data

Results flagged for a closer look

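The response of Treg in culture (24 h minus 0 h) differed from that of Tconv in culture for 108 genes by the limma test of the difference itself. Values are differences of log2 responses, Treg minus Tconv. The Treg response was the higher one for Scin (3.75), Gzmb (3.27), Plagl1 (2.79), Lrrc32 (2.71), Mpzl2 (2.62), Cybrd1 (2.57), Socs2 (2.31), Lif (2.15), Melk (1.81), Itgb8 (1.79), Cd80 (1.62) and Gadd45g (1.62). It was the lower one for Lag3 (-3.39), Cd7 (-2.52), Ephx1 (-2.50), Gstp3 (-2.46), Pold4 (-2.43), Cd9 (-2.27), Rgs16 (-2.04) and Ctla4 (-1.70). The same held for the histones H4c6 (-1.99), H1f5 (-1.94), H4c4 (-1.57) and H4c8 (-1.47), and for Cd3d (-1.98), Slc2a3 (-1.44), Tnfrsf4 (-1.43) and Dgkz (-1.42). The 0 h Tconv array of number 1 was the narrowest of the culture arrays (interquartile range 1.64), and without it 67 genes were called, 49 higher and 18 lower, of which 38 were among the 108 (36 higher and 72 lower). Of the 28 named here none stayed called under every alternative: all 28 were lost with array weights. Those weights were equal for both arrays of a group, at 0.073 for both 0 h Tconv arrays. They could not single out the narrow array, and they lowered the whole 0 h Tconv group.

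The response of Treg in culture differed from that of Treg in vivo for 89 genes by the test of the difference. Values are culture minus in vivo. The culture response was the higher one for Mpzl2 (3.46), Ifit3 (3.17), Cybrd1 (2.97), Serpinb9 (2.63), Idi1 (2.58), Nr4a3 (2.24), Tnfsf8 (2.18), Bcl2l1 (2.15), Rel (1.95), Icos (1.86), Il2ra (1.86) and Lrrc32 (1.85). It was also higher for Gadd45g (1.78), Socs2 (1.68), Lta (1.63), Cd80 (1.43), Cish (1.39), Furin (1.39), Ncf1 (1.32), Oas3 (1.23) and Icam1 (1.14). It was the lower one for Gzma (-2.32), H4c6 (-2.20), H1f1 (-2.17), Dusp1 (-2.09), H1f5 (-1.97), Kif2c (-1.90), Cst7 (-1.85), Pglyrp1 (-1.78), Dtx1 (-1.77), Ccr9 (-1.69), Txnip (-1.62), Btg2 (-1.54), Ramp1 (-1.52), H4c4 (-1.46) and Rab37 (-1.21). Of the 36 named here, 3 stayed called under every alternative in which they were tested: Mpzl2, Cybrd1 and Bcl2l1.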

How the results depend on the processing

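For 24 h against 0 h, the fit without the replicate block called 739 genes (116 lower), and the numbers paired crosswise gave 1222 calls, an alternative chosen after seeing the data. Other scales gave 583 higher and 494 lower (quantile), 74 lower (median centring) and 431 higher and 379 lower (equal interquartile range). Other arrays gave 378 calls (340 higher, 38 lower; 20 culture arrays), 2714 (2053 higher, 661 lower; without the 0 h Tconv array of number 1), 595 (511 higher, 84 lower; array weights) and 503 higher (without the 3 narrowest culture arrays, also chosen after seeing the data). Leaving out 1 array gave 242 to 2252 calls (203 to 1566 higher, 39 to 686 lower).

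Against 8 h, 0 genes were called without the replicate block (329 at an unadjusted p under 0.05 in limma), 0 with the 20 culture arrays (270) and 0 with the 10 Treg culture arrays (565). Quantile normalization gave 0 higher and 3 lower, equal interquartile ranges 0 higher and 2 lower, the offset of 16 gave 7 calls (4 lower), and without the 0 h Tconv array of number 1 there were 2 lower. Array weights gave 86 (39 higher, 47 lower), the 3 narrowest arrays left out 43 (18 higher, 25 lower), and 1 array left out 0 to 2 (0 to 1 higher, 0 to 2 lower).

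For Treg against Tconv responses, no replicate block gave 61 calls (36 lower), quantile normalization 265 (214 lower), median centring 57 (23 higher, 34 lower), equal interquartile ranges 301 (260 lower), the 20 culture arrays 5 (4 higher, 1 lower), array weights 0 (0 higher, 0 lower; 287 unadjusted), the 3 narrowest arrays left out 65 (30 lower), and 1 array left out 16 to 4319 (12 to 800 higher, 4 to 3519 lower). For culture against in vivo responses, no replicate block gave 12 (12 higher, 0 lower), median centring 49 (11 lower), equal interquartile ranges 17 (10 higher, 7 lower), no filter 54 (36 higher, 18 lower), leaving out the 0 h Tconv array of number 1 205 (128 higher, 77 lower), array weights 28 (21 higher, 7 lower), the 3 narrowest arrays left out 37 higher and 60 lower, and 1 array left out 4 to 111 (4 to 85 higher, 0 to 26 lower). Why these counts move was not tested.

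At 24 h against 0 h, 1129 of the 1131 called genes kept their sign with equal interquartile ranges, and the 1090 that passed the stricter filter did there. All 1131 did under the other alternatives. Among named genes that were not called, the sign turned for Lag3 (quantile, -0.02), Gzma (equal interquartile range, 0.04), Foxp3 (equal interquartile range, -0.61; with 1 array left out, -0.02 to 0.53), Ctla4 (equal interquartile range, -0.30) and Il7r (with 1 array left out, -0.70 to 0.24, with 0.05 without the 0 h array of number 2). With 2 arrays a group and levels near background for dim genes, small differences were not detectable.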

Other observations

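Of all tested genes 7.5% were called higher and 1.6% lower at 24 h against 0 h. Among 23 tested genes of glycolysis and the pentose phosphate pathway 7 were higher and 1 lower (median 0.51). The members higher were 3 without the 24 h array of number 1, 1 without that of number 2 and 2 without the 0 h array of number 1. With equal interquartile ranges 1 member was higher and 1 lower. Hk2, hexokinase 2, was at 8.15 and 9.01 at 24 h, against 7.05 and 6.38 at 0 h, a rise of 1.86 ± 0.32 (SE, limma adjusted p = 0.000432) that stayed called under all 18 alternatives. Slc2a3, the glucose transporter GLUT3, was the member called lower, at 9.85 and 9.61 at 24 h, against 10.42 and 10.69 at 0 h. Its difference of -0.83 ± 0.18 lost its call without the 24 h array of number 2 (-0.69). Of 31 tested proteasome subunits 4 were higher and none was lower (median 0.67), 27 were higher in both numbers, as were 4517 of the 12425 genes tested, and 1 was called without the block, 1 without the 24 h array of number 2, 2 without the 0 h array of number 2 and none without either array of number 1. Of 28 tested genes of the respiratory chain and the TCA cycle 1 was higher (median 0.30), and none without either array of number 1. Of 13 tested Bcl2 family members 1 was higher, Bcl2l1, and 2 were lower, Bik and Bmf, both of which promote cell death. Bik was at 6.39 and 6.42 at 24 h, against 7.46 and 6.92 at 0 h, and its call was lost without the 24 h array of number 1 (-0.76) or 2 (-0.81) and without the 0 h array of number 1 (-0.50). Bmf was at 6.39 and 6.65 at 24 h, against 7.40 and 6.93 at 0 h, and its call was lost without the 24 h array of number 1 (-0.50) or 2 (-0.78) and without the 0 h array of number 1 (-0.38).

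The mean of 4 sex-linked genes was 5.60 in number 1 and 7.44 in number 2 at 24 h, against 5.13 in number 1 and 7.70 in number 2 at 0 h, and none of the 4 was called. Of the plasma cell markers 2 of 3 tested were called higher at 24 h, Irf4 and Xbp1, both of which activated T cells also express.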
